A study of Mus musculus with 12 samples.

Results

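hAT elements are DNA transposons of the superfamily named after the hobo, Activator and Tam3 elements. The members described here are the repeat loci annotated with the class DNA and with a family name that starts with hAT, which were 25483 of the 781637 repeat loci listed, together with the 117 repeat subfamilies to which these loci belong, of 1528 subfamilies. By annotated branch, 22651 loci of 71 subfamilies were hAT-Charlie, 1618 loci of 30 subfamilies were hAT-Tip100, 781 loci of 8 subfamilies were hAT-Blackjack, and the rest carried the plain name hAT or a name with a question mark. The 79 loci of MER96B were listed under both hAT and hAT-Tip100 and were counted once in the total.

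All RNA came from testes of C57BL/6 mice of 3 months with the genotype Mael-/-, so no comparison with animals that carry Mael was possible. TOTAL was the clarified testis extract with 10 mM EDTA, which takes ribosomes apart, and INPUT was the pool of fractions 5 to 8 of a 10 to 50% sucrose gradient of such extract. IP was the RNA recovered from INPUT with an antibody to L1 ORF1p, the RNA-binding protein encoded by the LINE-1 retrotransposon, and BO was the RNA that stayed on beads without antibody. Each group had 3 libraries, depleted of ribosomal RNA, and since the labels do not say that these came from separate animals, p-values measure only the spread between libraries.

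A hAT element moves by cut and paste: its transposase binds the inverted repeats at both ends, excises the DNA and inserts it elsewhere, with no RNA copy as an intermediate. Short elements that lack a transposase gene, such as the MER and URR names, spread with the enzyme of longer relatives, of which the Charlie and Tip100 elements are the best known in mammals. The hAT copies of the mouse are old and no longer mobile, and their sequence appears in RNA mainly as a part of longer transcripts. ORF1p coats LINE-1 RNA in its ribonucleoprotein particle, and MAEL is a factor of the piRNA pathway that restrains LINE-1 in male germ cells.

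The depth of the subfamily measurement was between 1384904 and 7282171 reads per library, as recovered from the normalized counts. These are reads on the 1528 repeat subfamilies only, and the library totals used below are their sums. Reads on hAT subfamilies numbered between 31156 and 85783 per library, and made up between 0.671% and 2.59% of these repeat reads. Within BO, replicate 3 stood apart with a hAT share of 1.20% against 2.44% and 2.59%, and within TOTAL, replicate 1 had 1.06% against 0.695% and 0.671%. In the authors' group means for TOTAL, the spermatocyte and germ cell genes Sycp1, Sycp3, Hspa2, Ddx4 and Dazl lay between 1385 and 13894 normalized counts. The late spermatid genes Acrv1, Prm1 and Tnp1 lay between 11.7 and 30.1, the genes of other tissues Alb, Ins2 and Myh6 at 4.199, 3.48 and 133, and the inactivated gene Mael at 0.650. The Sertoli genes Sox9 and Wt1 lay at 1591 and 3781, and the Leydig genes Insl3 and Cyp17a1 at 1744 and 29894. Log2 ratios of IP to TOTAL were 2.03 to 2.92 for the germ cell genes, -0.73 and -1.22 for Sertoli, and -4.26 and -2.58 for Leydig. To INPUT they were 1.65 to 3.06, -0.34 and -0.26, and -2.98 and -1.93. To BO they were 1.96 to 3.94, -1.34 and -1.60, and 0.40 and 1.53. Whether the hAT signal follows these cell types was not tested.

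On the deposited normalization, the mean summed signal of the hAT class in IP lay near that in TOTAL and below those in INPUT and BO, and this order depended on the scaling. The summed normalized count of the 117 subfamilies was 47971, 45939 and 44164 in the TOTAL libraries, 51025, 49363 and 49595 in INPUT, 53466, 57587 and 53792 in BO, and 45826, 48330 and 48594 in IP. The IP libraries therefore overlapped the TOTAL libraries, lay below every INPUT library and lay below every BO library. The means were 46024 ± 1905 in TOTAL, 49994 ± 900 in INPUT, 54949 ± 2291 in BO and 47583 ± 1527 in IP (SD, n = 3). Scaling to library totals gave 27851 ± 7587 in TOTAL, 59355 ± 1712 in INPUT, 71320 ± 26238 in BO and 82480 ± 4480 in IP (SD, n = 3), so that IP lay above every TOTAL and INPUT library. The order of the BO and IP means rested on BO replicate 3, at 41157, and without it the BO mean was 86402. Median ratio scaling gave means of 46355 in TOTAL, 49478 in INPUT, 52748 in BO and 49809 in IP. The IP libraries, at 48541 to 50621, then lay above every TOTAL library, overlapped INPUT and lay below every BO library.

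A ratio to another old repeat family in the same library does not depend on the scaling. The ratio of hAT to Tc1-mariner elements, the other large group of mammalian DNA transposons, was 2.85 ± 0.0499 in TOTAL, 2.93 ± 0.0578 in INPUT, 2.70 ± 0.0463 in BO and 3.08 ± 0.0862 in IP (SD, n = 3). Against MIR, an ancient SINE, the ratio was 1.29 ± 0.0561 in TOTAL, 1.23 ± 0.00752 in INPUT, 1.46 ± 0.0268 in BO and 1.38 ± 0.0481 in IP. Against L2, an ancient LINE, it was 2.01 ± 0.109 in TOTAL, 2.04 ± 0.0723 in INPUT, 2.24 ± 0.0664 in BO and 2.14 ± 0.0271 in IP. IP and BO thus stood in the opposite order when hAT was read against Tc1-mariner and when it was read against MIR or L2. The libraries of IP and BO did not overlap in the ratio to Tc1-mariner (2.997 to 3.17 against 2.65 to 2.73), MIR (1.33 to 1.42 against 1.44 to 1.49) or L2 (2.11 to 2.16 against 2.17 to 2.30).

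**Figure D1:**
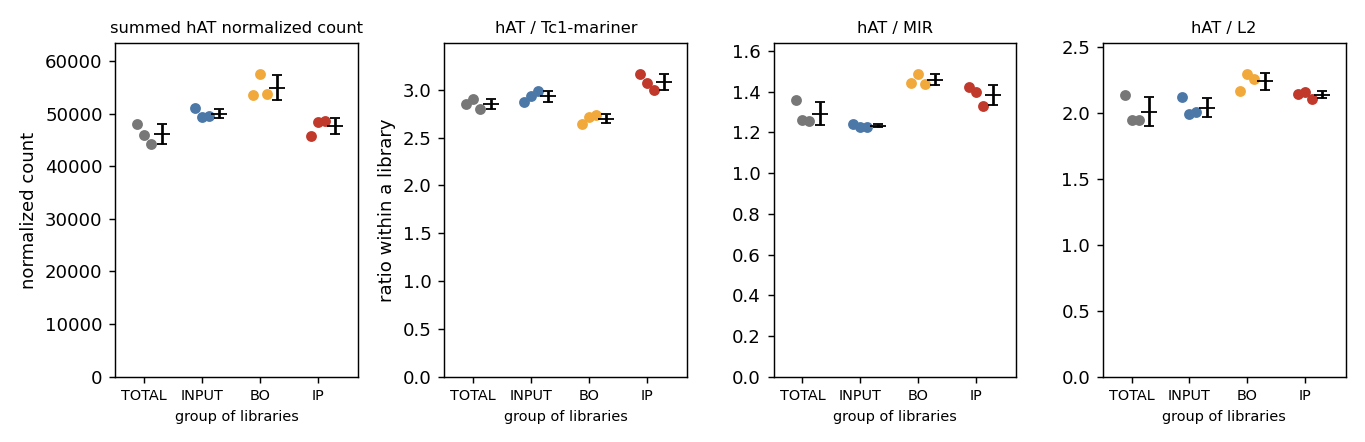
Summed normalized count of the 117 hAT subfamilies, and its ratio to the summed Tc1-mariner, MIR and L2 subfamilies of the same library, for each library (points) of the 4 groups, with the mean and SD (n = 3). All axes start at 0, and the hAT sums lie between 44164 and 57587 in all 12 libraries.

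hAT-Charlie subfamilies held 92.7% of the summed hAT signal, hAT-Tip100 3.71% and hAT-Blackjack 1.91%. URR1A and URR1B together held between 26.0% and 30.9% of the hAT reads of a library. Over the 117 subfamilies the mean normalized count ranged from 1.38 to 7147, and it followed the number of loci listed, with a Spearman rho of 0.92 across subfamilies, which are not independent since they share the libraries. In all, 105 of the 117 subfamilies reached a mean of 10 over the 12 libraries and were tested, and the 12 that did not had means of at most 9.99.

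On the deposited normalization, few hAT subfamilies differed by more than 2-fold between IP and the other groups. At a log2 fold change past 1 and an adjusted p under 0.05 by limma, 3 of 105 were higher in IP than in BO, where 5.08% of all 1180 subfamilies tested were called higher, and 0 were lower, where 3.81% of all were. Against INPUT, 4 were higher (3.22% of all) and 1 was lower (2.88% of all). Against TOTAL, 3 were higher (2.88% of all) and 0 were lower (3.47% of all). Scaled to library totals, 8 hAT subfamilies were called higher against BO, 13 against INPUT and 100 against TOTAL, where 10.6%, 10.7% and 85.9% of all 1180 were, and 0 were called lower, where 1.44%, 1.53% and 1.44% of all were. Whether these counts differ from those of repeat subfamilies in general was not tested. For the counts of 0, edgeR and DESeq2 on the recovered reads also called 0, and at an unadjusted p under 0.05 by limma, whatever the fold, 25 hAT subfamilies were lower in IP against BO (28.8% of all 1180 were) and 13 in IP against TOTAL (20.8% of all).

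The median log2 fold change of the 105 hAT subfamilies was -0.12 in IP against BO, -0.08 against INPUT and 0.04 against TOTAL. Over all 1180 subfamilies the medians were -0.12, -0.06 and -0.05. These 3 comparisons share the IP libraries, so they are given side by side. The plot of fold change against level shows most hAT subfamilies within a narrow band around 0, and the called ones are drawn in red.

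**Figure D2:**
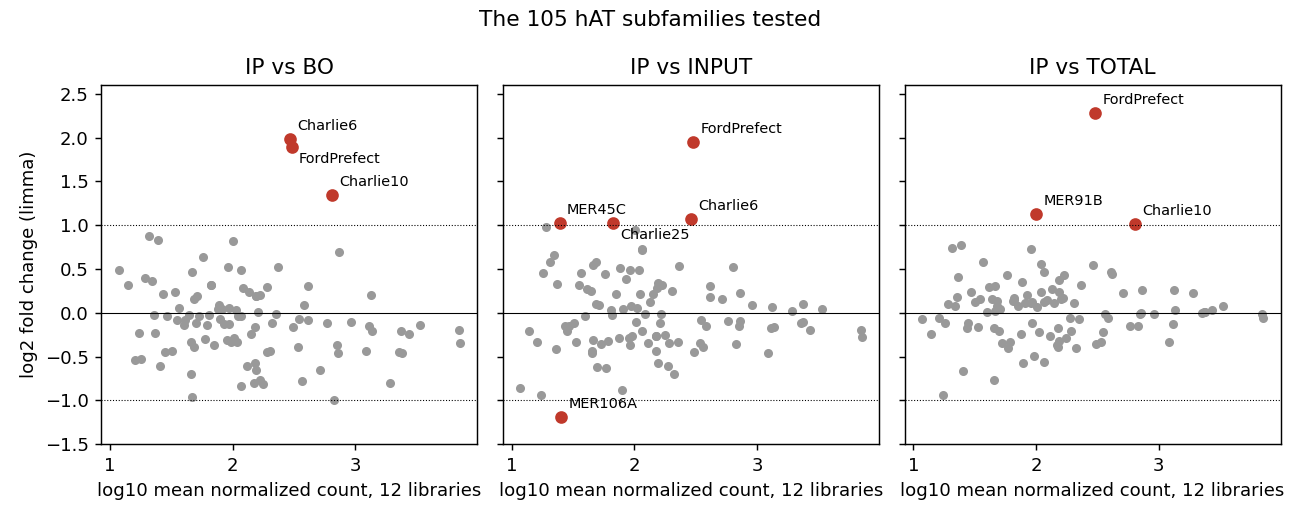
Log2 fold change of the 105 tested hAT subfamilies in IP against BO, INPUT and TOTAL (limma), against the log10 of the mean normalized count over 12 libraries. Red points are the called subfamilies, dotted lines mark log2 fold changes of -1 and 1, and FordPrefect is the only name called in all 3 panels, at 1.90, 1.95 and 2.28.

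FordPrefect, a hAT-Tip100 element, was the hAT subfamily called against all 3 other groups. Its normalized count was 830, 752 and 529 in the IP libraries. It was 192, 183 and 180 in BO, 195, 169 and 171 in INPUT, and 187, 106 and 144 in TOTAL. Every IP library thus lay above every other library, and the other 9 did not separate by group.

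The mean of FordPrefect was 703 ± 156 in IP, 185 ± 6.33 in BO, 178 ± 14.7 in INPUT and 146 ± 40.2 in TOTAL (SD, n = 3). The log2 fold change was 1.90 ± 0.20 (SE) against BO, with an adjusted p of 2.1e-05 by limma. It was 1.95 ± 0.20 against INPUT (adjusted p = 3.65e-05) and 2.28 ± 0.20 against TOTAL (adjusted p = 9.6e-06). In the order of all 1180 subfamilies by fold change, FordPrefect stood at place 1 against TOTAL, at place 3 against INPUT and at place 17 against BO. Among the 169 tested subfamilies of class DNA it was at place 1 against TOTAL and INPUT and at place 2 against BO.

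These values rest on between 97 and 587 reads on FordPrefect per library. As a share of the hAT reads, which does not depend on the scaling of a library, FordPrefect was 1.48% ± 0.366 in IP, 0.337% ± 0.0205 in BO, 0.357% ± 0.0229 in INPUT and 0.315% ± 0.0793 in TOTAL (SD, n = 3). The lowest IP share was 1.09% and the highest of the other 9 was 0.390%. The related name FordPrefect_a had between 1 and 9 reads per library, with a mean of 2.22 ± 1.46 in IP and 1.93 ± 0.32 in INPUT (SD, n = 3), and was too low to be tested.

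FordPrefect held the higher level of its branch in IP. The 29 subfamilies annotated hAT-Tip100 alone summed to 2267 ± 70.2 in IP, against 1771 ± 136 in BO, 1737 ± 115 in INPUT and 1594 ± 101 in TOTAL (SD, n = 3). Without FordPrefect the other 28 summed to 1563 ± 92.3 in IP, 1586 ± 137 in BO, 1558 ± 99.9 in INPUT and 1448 ± 67.5 in TOTAL, and the ranges of the IP, BO and INPUT libraries then overlapped.

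The signal of single loci was available only as the authors' group mean, in a separate table for IP with each other group, and these tables were scaled apart, so the IP mean of a locus differs between them. Of the 55 FordPrefect loci listed, FordPrefect_30 carried most of the signal. Its mean was 228 in IP and 71.7 in BO, 299 in IP and 50.2 in INPUT, and 298 in IP and 58.0 in TOTAL. The ratio of IP to the other group, after 1 was added to both means, was 3.16 for BO, 5.87 for INPUT and 5.07 for TOTAL.

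FordPrefect_30 held 91.7% of the summed IP means of FordPrefect in the table with BO, 91.6% in that with INPUT and 91.7% in that with TOTAL. The other 54 loci together summed to 20.8 in IP and 36.9 in BO, 27.3 in IP and 49.7 in INPUT, and 27.0 in IP and 22.1 in TOTAL. Among the listed loci, the higher IP level of FordPrefect was thus carried by a single copy, as the plot of its loci shows. The ratio of the summed listed loci to the subfamily level in IP was between 0.354 and 0.465. Since the 2 levels were scaled apart and may rest on different reads, this ratio is not a share of the signal. The signal of copies that are not listed was not analysed here. The next FordPrefect loci, named after their values were seen, were low. In the table with INPUT, FordPrefect_62 was at 4.30 in IP and 18.9 in INPUT, and FordPrefect_63 at 2.18 in IP and 19.4 in INPUT. FordPrefect_55 lay the other way, at 7.65 in IP and 1.88 in INPUT, but averaged under the minimum of 10 used for loci. The locus tables give no positions, so where FordPrefect_30 lies, and in which transcript, could not be told.

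**Figure D3:**
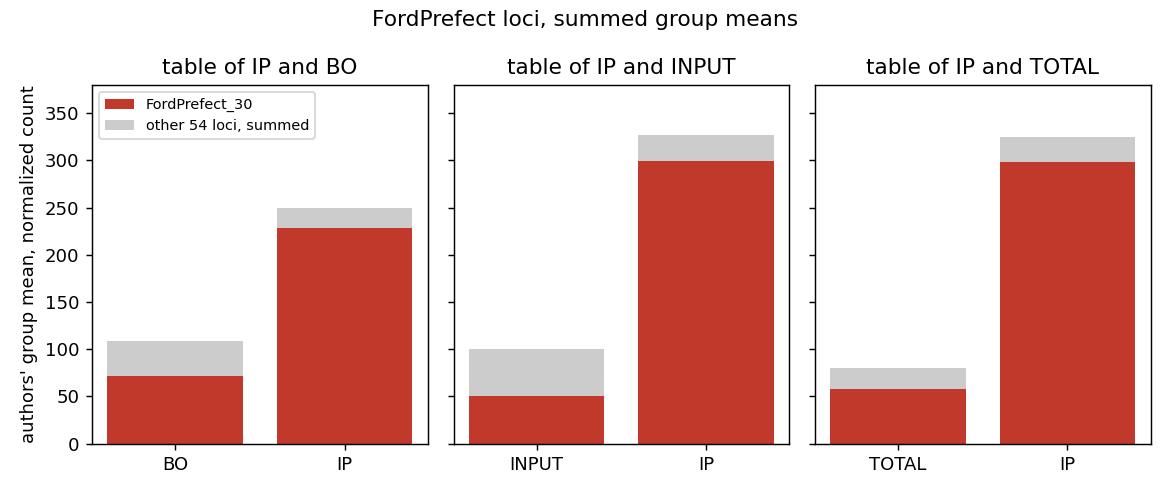
Authors' group means of the 55 FordPrefect loci in the 3 locus tables, as stacked bars in normalized counts, with FordPrefect_30 in red and the other 54 loci summed in grey. FordPrefect_30 reaches 228, 299 and 298 in IP, while the grey part is lower in IP than in BO and INPUT and similar to TOTAL.

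Charlie6 and Charlie10, both hAT-Charlie elements, passed the call threshold against BO on the higher side. Charlie6 was at 477, 562 and 406 in the IP libraries, 93.5, 103 and 181 in BO, 241, 212 and 227 in INPUT, and 374, 307 and 306 in TOTAL. The IP libraries were the highest and the BO libraries the lowest, with no overlap between any of the 4 groups. The log2 fold change was 1.98 ± 0.21 (SE) against BO (limma, adjusted p = 2.77e-05), 1.07 ± 0.21 against INPUT (adjusted p = 0.00296) and 0.54 ± 0.21 against TOTAL (adjusted p = 0.0896). Against INPUT the value fell to 0.96, under the threshold, without IP replicate 2.

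Charlie10 was at 1068, 1040 and 852 in IP, 386, 422 and 358 in BO, 783, 651 and 621 in INPUT, and 636, 423 and 431 in TOTAL. Again every IP library was the highest, and every BO library lay below every TOTAL library. The log2 fold change was 1.34 ± 0.16 (SE) against BO (limma, adjusted p = 4.87e-05), 1.01 ± 0.16 against TOTAL (adjusted p = 0.000830) and 0.53 ± 0.16 against INPUT (adjusted p = 0.0267). Against TOTAL it fell to between 0.91 and 0.97, under the threshold, without IP replicate 1 or 2 or without TOTAL replicate 2 or 3.

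On the deposited normalization, both elements were lower on bare beads than in INPUT. In BO against INPUT, Charlie6 had a log2 fold change of -0.90 ± 0.21 (SE; limma, adjusted p = 0.00703) and Charlie10 one of -0.81 ± 0.16 (adjusted p = 0.00256). For FordPrefect the same contrast gave 0.05 ± 0.20 (adjusted p = 0.885). Charlie6 and Charlie10 thus lay above INPUT in IP and below INPUT in BO, whereas for FordPrefect no difference between BO and INPUT was detectable. Scaled to library totals, BO against INPUT gave -0.86 for Charlie6 (limma, adjusted p = 0.153) and -0.76 for Charlie10 (adjusted p = 0.282), and without BO replicate 3 that scaling gave -0.81 (adjusted p = 0.0261) and -0.37 (adjusted p = 0.333). On the deposited normalization without BO replicate 3, Charlie6 gave -1.20 against INPUT and passed the call threshold.

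The summed listed loci of these subfamilies lay higher in IP in 2 of 6 comparisons, those of Charlie10 with INPUT and TOTAL. The 73 Charlie10 loci summed to 39.6 in IP and 50.9 in BO, to 52.2 in IP and 39.2 in INPUT, and to 51.8 in IP and 47.3 in TOTAL. The 21 Charlie6 loci summed to 16.3 in IP and 17.9 in BO, to 21.4 in IP and 43.4 in INPUT, and to 21.2 in IP and 27.6 in TOTAL. Relative to the level of the subfamily in IP, the loci listed in the table with INPUT summed to 0.0444 of it for Charlie6 and 0.0529 for Charlie10, against 0.465 for FordPrefect and a median of 0.426 over the 105 tested hAT subfamilies. The same ratio was 0.192 in INPUT, 0.142 in BO and 0.0838 in TOTAL for Charlie6. For Charlie10 it was 0.0572 in INPUT, 0.131 in BO and 0.0952 in TOTAL. Loci and subfamilies were scaled apart and may rest on different reads, so the ratio is not a share, and it can exceed 1 (Charlie17a in BO, 1.32). The listed loci of Charlie6 and Charlie10 thus stood low beside the subfamily level, by an amount that differed between groups. The numbers in the locus names run up to 143 for Charlie6, 363 for Charlie10 and 287 for FordPrefect, so the tables list only some of the numbered copies. Why copies are missing was not tested.

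**Figure D4:**
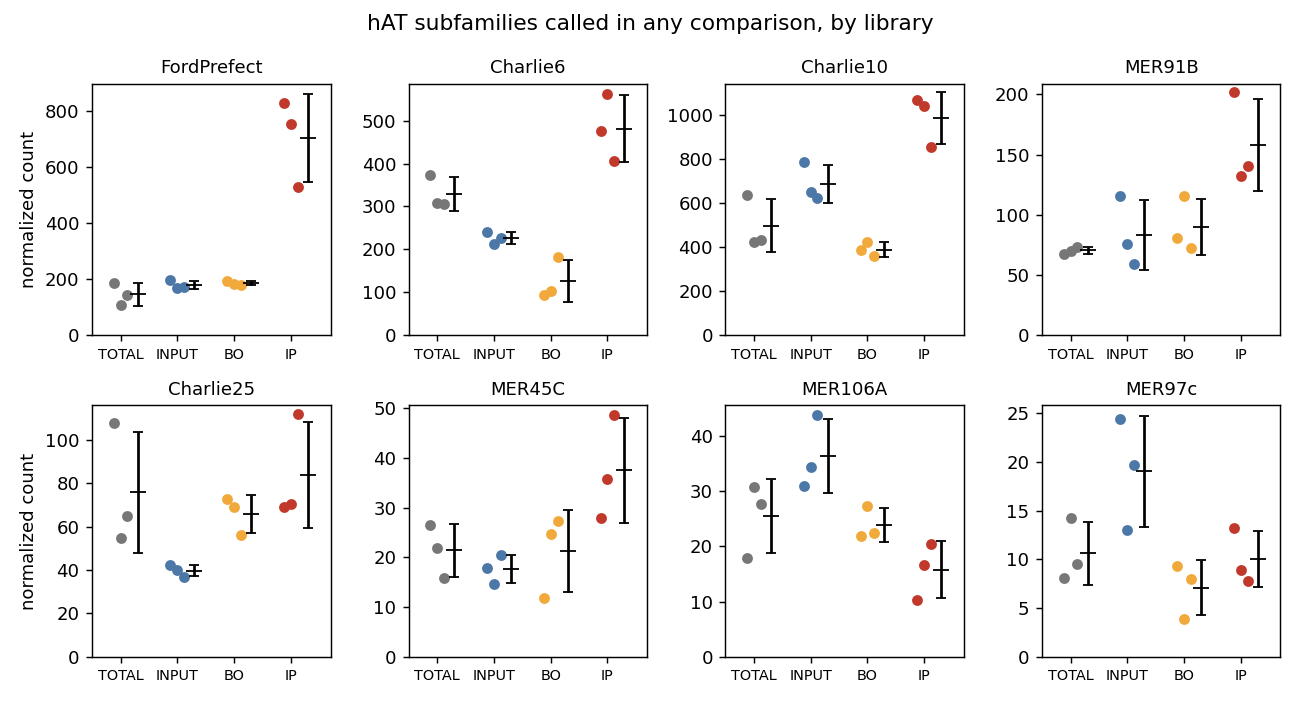
Normalized count of the 8 hAT subfamilies called in any comparison, in each of the 3 libraries (points) of TOTAL, INPUT, BO and IP, with the mean and SD beside them. FordPrefect separates IP from the other 9 libraries, Charlie6 and Charlie10 are highest in IP and lowest in BO, and MER45C, MER106A and MER97c lie under 50 normalized counts throughout.

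4 further subfamilies were called at lower levels and with less margin. MER91B, a hAT-Tip100 element, was at 201, 132 and 140 in IP, 67.4, 70.2 and 73.4 in TOTAL, 116, 75.9 and 59.0 in INPUT, and 81.0, 116 and 72.2 in BO. Every IP library lay above every other library. The log2 fold change was 1.13 ± 0.25 (SE) against TOTAL (limma, adjusted p = 0.00761), 0.94 ± 0.25 against INPUT (adjusted p = 0.0160) and 0.81 ± 0.25 against BO (adjusted p = 0.0255). Without IP replicate 1 the value against TOTAL was 0.94, under the threshold. Against INPUT it passed the threshold at 1.20 without INPUT replicate 1, 1.06 without IP replicate 2 and 1.01 without IP replicate 3, and against BO at 1.01 without BO replicate 2. The 41 listed MER91B loci summed to 15.8 in IP and 19.6 in TOTAL. The ratio of their IP sum to the subfamily's level in IP, which was scaled apart, was 0.1003.

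Charlie25 was at 69.1, 70.4 and 112 in IP and 42.3, 40.0 and 37.0 in INPUT, without overlap, and at 72.9, 69.0 and 56.1 in BO and 108, 54.9 and 64.9 in TOTAL, both overlapping IP. The log2 fold change against INPUT was 1.02 ± 0.26 (SE; limma, adjusted p = 0.0112), and it was 0.97 without INPUT replicate 3 and 0.80 without IP replicate 3. The 67 listed Charlie25 loci summed to 53.1 in IP and 26.8 in INPUT, so this subfamily was higher in both kinds of table.

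MER45C, outside the rule for named subfamilies and named after its values were seen, was at 28.0, 35.8 and 48.8 in IP and 17.8, 14.7 and 20.4 in INPUT. Its log2 fold change was 1.02 ± 0.35 (SE; limma, adjusted p = 0.0449). The call rested on between 18 and 50 reads per library in these groups and held only when IP replicate 1 was left out, while leaving out any of the other 5 libraries gave an adjusted p between 0.0671 and 0.144. MER106A was the one hAT subfamily past the call threshold on the lower side in IP against INPUT, at 10.3, 16.6 and 20.5 in IP and 31.0, 34.3 and 43.8 in INPUT, with no overlap. Its log2 fold change was -1.19 ± 0.30 (SE; limma, adjusted p = 0.0118) on between 7 and 58 reads per library, and it was -1.05 without INPUT replicate 3 (adjusted p = 0.0538) and -0.93 without IP replicate 1.

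On the deposited normalization, the 4 most abundant hAT subfamilies differed by far less than 2-fold between IP and the other groups, while scaling to library totals put all 4 more than 2-fold above TOTAL. URR1B, a short rodent element, was at 5704, 6539 and 6739 in IP, 7573, 8432 and 8114 in BO, 7561, 7863 and 7467 in INPUT, and 6452, 6850 and 6469 in TOTAL. Its IP libraries lay below all BO and INPUT libraries and overlapped TOTAL. The log2 fold change was -0.35 ± 0.07 (SE) against BO (limma, adjusted p = 0.00313), -0.27 ± 0.07 against INPUT (adjusted p = 0.0167) and -0.06 ± 0.07 against TOTAL (adjusted p = 0.605).

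URR1A, its close relative in name, was at 6207, 6647 and 6659 in IP, 7052, 7957 and 7405 in BO, 7298, 7385 and 7600 in INPUT, and 6670, 6672 and 6355 in TOTAL. It followed the same order, with log2 fold changes of -0.20 ± 0.06 (SE) against BO (limma, adjusted p = 0.0290), -0.19 ± 0.06 against INPUT (adjusted p = 0.0411) and -0.01 ± 0.06 against TOTAL (adjusted p = 0.907). MER20, an element of placental mammals, had means of 2527 ± 72.1 in IP, 2982 ± 41.6 in BO, 2905 ± 117 in INPUT and 2478 ± 187 in TOTAL (SD, n = 3), with -0.24 ± 0.07 (SE) against BO (limma, adjusted p = 0.0162) and -0.20 ± 0.07 against INPUT (adjusted p = 0.0449). RCHARR1 had means of 3358 ± 248 in IP, 3691 ± 119 in BO, 3243 ± 53.5 in INPUT and 3193 ± 321 in TOTAL (SD, n = 3), and none of its 3 contrasts passed (limma, adjusted p between 0.210 and 0.702). Scaling to library totals turned the sign of URR1B, URR1A and MER20 against BO and INPUT to above 0, with adjusted p between 0.460 and 0.799. Against TOTAL, the same scaling gave 1.49 for URR1B, 1.54 for URR1A, 1.58 for MER20 and 1.62 for RCHARR1 (limma, adjusted p between 4.16e-05 and 0.000112). Against BO the change of sign rested on BO replicate 3: under the same scaling without it, a setting chosen after the data were seen, the values were -0.19 for URR1B, -0.05 for URR1A and -0.08 for MER20 (limma, adjusted p between 0.618 and 0.930).

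At an adjusted p under 0.05 and any fold, a rule added after the values were seen, and on the deposited normalization, hAT subfamilies were counted beside all subfamilies. Against BO, 23 were lower, where 23.2% of all 1180 were, and 6 were higher, where 11.3% of all were. Against INPUT, 14 were lower (16.7% of all) and 9 higher (11% of all), and against TOTAL 3 were lower (12.5% of all) and 8 higher (10.2% of all).

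MER33 and Charlie1b, 2 hAT-Charlie elements named after their values were seen, stood highest in BO. MER33 was at 2621, 3332 and 2795 in BO, 1669, 1712 and 1626 in IP, 1712, 1578 and 1649 in INPUT, and 1518, 1448 and 1307 in TOTAL. BO did not overlap the others, while IP and INPUT did overlap. Its log2 fold change was -0.80 ± 0.09 (SE) in IP against BO (limma, adjusted p = 4.11e-05), 0.82 ± 0.09 in BO against INPUT (adjusted p = 7.54e-05) and 0.02 ± 0.09 in IP against INPUT (adjusted p = 0.893). Scaled to library totals it was -0.30 in IP against BO (limma, adjusted p = 0.598) and 0.87 in BO against INPUT (adjusted p = 0.172). Under that scaling without BO replicate 3 it was -0.67 (adjusted p = 0.0499) and 1.235 (adjusted p = 0.00151).

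Charlie1b was at 955, 1043 and 977 in BO and 484, 462 and 551 in IP. It had a log2 fold change of -0.99 ± 0.11 (SE) in IP against BO (limma, adjusted p = 2.97e-05), just short of the call threshold, and reached -1.02 without BO replicate 1, -1.003 without BO replicate 3 and -1.07 without IP replicate 3. Scaled to library totals it was -0.50 (adjusted p = 0.361), and -0.85 under that scaling without BO replicate 3 (adjusted p = 0.0294). MER33 made up 5.29% ± 0.450 of the hAT reads in BO and 3.51% ± 0.151 in IP (SD, n = 3), a share that no scaling changes.

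On the deposited normalization, no hAT subfamily was called between INPUT and TOTAL. In INPUT against TOTAL, 0 of 105 hAT subfamilies were called higher, where 0% of all 1180 were, and 0 lower, where 0.339% of all were. The same counts of 0 came from edgeR and DESeq2, and at an unadjusted p under 0.05 limma had 10 higher (9.07% of all) and 4 lower (7.97% of all). The hAT log2 fold changes lay between -0.87 and 0.78 with a median of 0.09. Scaling to library totals called 66 hAT subfamilies higher, where 54% of all were, but it moved the median of all 1180 subfamilies by 0.997 on the log2 scale. These totals count repeat reads only, so a level per read of the whole library was not available. Which scaling fits this contrast better was not tested. Since INPUT was a gradient pool of such extract, this contrast compares fractions with whole extract. It does not measure cell numbers or RNA per cell.

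In BO against INPUT, 0 hAT subfamilies were called higher, where 2.63% of all were, and 1 was lower, where 2.8% of all were. For the higher side edgeR and DESeq2 also called 0, and limma had 23 at an unadjusted p under 0.05 (22.2% of all), while library totals without BO replicate 3 called 17 (9.32% of all). At an adjusted p under 0.05 and any fold, 14 hAT subfamilies were higher (17.2% of all) and 8 lower (11.7% of all). The called one was MER97c, a hAT-Tip100 element, at 9.36, 3.90 and 8.02 in BO and 24.4, 13.1 and 19.7 in INPUT, with a log2 fold change of -1.34 ± 0.41 (SE; limma, adjusted p = 0.0298). It rested on between 3 and 26 reads per library, and the adjusted p was 0.106 without INPUT replicate 1, 0.0939 without INPUT replicate 3 and 0.108 without BO replicate 2.

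Most of the 25483 hAT loci had little signal. A mean above 0 in at least 1 group was listed for 23887 loci, and 1596 were at 0 in all 3 tables. The 10 loci with the highest IP means in the table with INPUT held 13.0% of the summed hAT IP means, the highest 100 held 27.0%, and the highest locus held 2.72%. Loci whose 2 group means averaged at least 10 in any table numbered 266, or 1.04% of those listed.

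Single hAT loci with enough signal were more often lower than higher in IP against BO and INPUT, as repeat loci in general also were. In the table with BO, 180 hAT loci averaged at least 10, of which 14 were at least 2-fold higher in IP, where 17.3% of the 5552 repeat loci past the same minimum were, and 107 at least 2-fold lower, where 47.7% were. With INPUT, 27 of 215 were higher (22.1% of all 6642) and 83 lower (31.2% of all). With TOTAL, 30 of 169 were higher (24.1% of all 6185) and 31 lower (24.3% of all). These are ratios of group means with no spread, and no test was run on them.

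The median log2 ratio of the hAT loci was -1.21 in IP against BO, -0.59 against INPUT and -0.23 against TOTAL. The medians of all repeat loci past the minimum were -0.90, -0.25 and 0.01, and those of the genes in the same tables were 0.81, 0.15 and -0.03. Genes and repeat loci were scaled together, so in the table with BO the repeat loci lay below the genes as a body. Centred on the median repeat locus, 36 of 180 hAT loci were higher (30% of all repeat loci) and 62 lower (25.7% of all) in IP against BO, and 32 of 215 were higher (26.7% of all) and 73 lower (25.1% of all) against INPUT. Among the better measured loci, averaging at least 50, 5 of 24 were higher (20.6% of all 613 repeat loci) and 11 lower (52.2% of all) against BO. Against INPUT, 7 of 27 were higher (25.2% of all 648) and 5 lower (26.4% of all), and against TOTAL 8 of 24 were higher (29.9% of all 639) and 2 lower (23.5% of all).

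The copies with most signal in IP belonged to different subfamilies. URR1A_9465 had a mean of 561 in IP and 176 in INPUT, a ratio of 3.17, and it was 428 in IP and 80.1 in BO (ratio 5.29) and 558 in IP and 134 in TOTAL (ratio 4.15). MER3_1741 was at 438 in IP and 140 in INPUT (ratio 3.10), 334 in IP and 67.4 in BO (ratio 4.90), and 437 in IP and 92.0 in TOTAL (ratio 4.71). Both copies were higher in IP in each table, and both went against the other listed loci of their subfamily. URR1A_9465 held 16.5% of the summed URR1A IP means in the table with BO, and the other 3903 loci summed to 2169 in IP and 3734 in BO. MER3_1741 held 47.6% of the summed MER3 IP means there, and the other 712 loci summed to 368 in IP and 617 in BO.

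URR1B_7681, the third in level, differed less, with 304 in IP and 272 in BO, 400 in IP and 478 in INPUT, and 398 in IP and 238 in TOTAL. FordPrefect_30 was the fourth. Charlie8_265 was the fifth, at 224 in IP and 155 in INPUT (ratio 1.44), 171 in IP and 119 in BO (ratio 1.43) and 223 in IP and 166 in TOTAL (ratio 1.35). Its neighbours in number, Charlie8_264, Charlie8_266 and Charlie8_267, named after their values were seen, had ratios of 1.25, 1.47 and 1.30 against INPUT and of 1.65, 1.51 and 1.76 against BO, so the 4 copies stood at similar ratios. All 4 were higher in IP in each of the 3 tables, each by less than 2-fold.

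**Figure D5:**
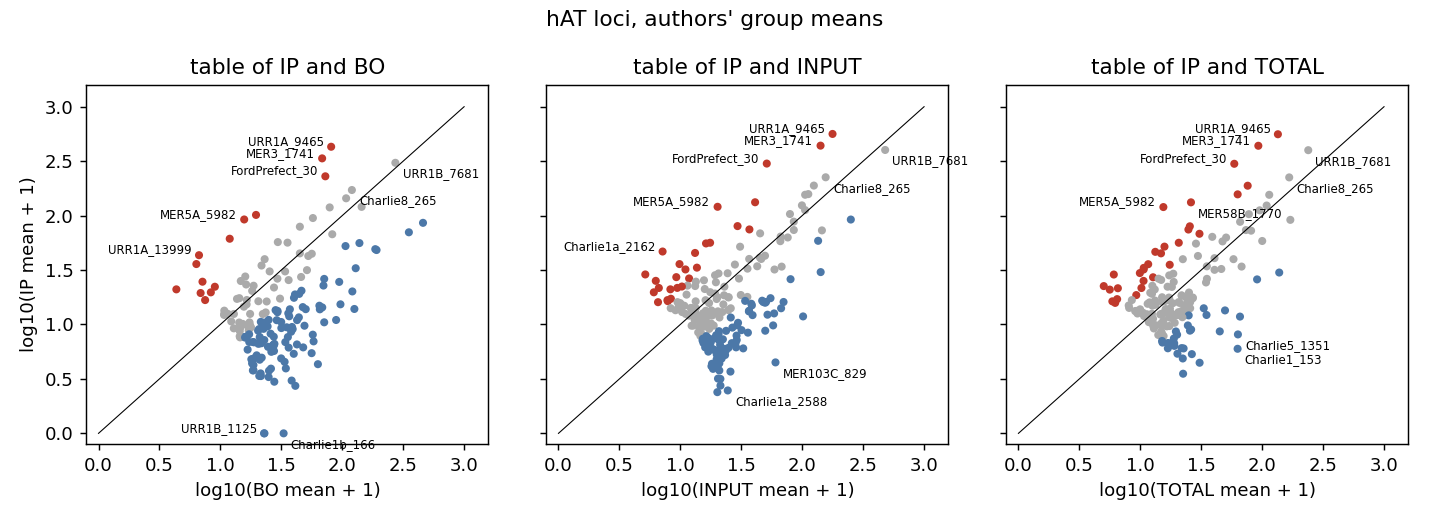
Authors' group means of hAT loci whose 2 means average at least 10, as log10(mean + 1) in IP against BO (180 loci), INPUT (215) and TOTAL (169), with the line of equal means. Red loci are at least 2-fold higher in IP and blue ones at least 2-fold lower; the 5 loci with the highest IP means in the table with INPUT and the extreme ratios of each table are named.

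The extreme ratios came from less abundant copies. MER5A_5982 was among the 2 highest in all 3 tables, at 91.1 in IP and 14.7 in BO (ratio 5.87), 119 in IP and 19.2 in INPUT (ratio 5.96), and 119 in IP and 14.5 in TOTAL (ratio 7.74). URR1A_13999 had the highest ratio against BO, 6.48, from 42.3 in IP and 5.68 in BO. Charlie1a_2162 had the highest against INPUT, 6.54, from 45.8 in IP and 6.15 in INPUT, and MER58B_1770 the second highest against TOTAL, 5.08, from 131 in IP and 25.1 in TOTAL.

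At the other end, Charlie1b_166 was at 32.0 in BO and URR1B_1125 at 22.0, and both were listed at 0 in IP. Both passed the minimum in the table with BO only through their BO mean. Charlie1b_166 was listed at 0 in INPUT and at 0.325 in TOTAL. Whether its signal in BO came from more than 1 library cannot be told from group means. MER103C_829 was at 3.48 in IP and 59.4 in INPUT, and Charlie1a_2588 at 1.48 in IP and 23.5 in INPUT. Charlie1_153 was at 4.98 in IP and 61.9 in TOTAL, and Charlie5_1351 at 7.10 in IP and 62.3 in TOTAL, the 2 lowest ratios against TOTAL. Within Charlie1a, the copies Charlie1a_2162 and Charlie1a_2588 thus lay at opposite ends of the table with INPUT.

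The subfamily fits and the summed loci of a subfamily pointed to the same side for most but not all of the 105 tested names. The log2 ratio of summed locus means and the limma log2 fold change had the same sign for 73 names in IP against BO, 83 against INPUT and 72 against TOTAL. Across these names Spearman's rho was 0.54, 0.63 and 0.57, as a description of values that come from the same libraries. Of the subfamilies named above for IP against INPUT, FordPrefect, Charlie10, Charlie25, MER45C and RCHARR1 lay above INPUT in both. Charlie6, MER91B and MER33 did so only in the subfamily table. For RCHARR1 and MER33 the log2 fold changes were only 0.05 and 0.02.

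Host genes that carry a domain derived from a hAT transposase were read from a list of 4. Zbed6, a transcription factor gene, was at 1254 in IP and 3847 in BO, 1644 in IP and 2438 in INPUT, and 1638 in IP and 1480 in TOTAL. Zbed4 was at 412 in IP and 669 in BO, 540 in IP and 403 in INPUT, and 538 in IP and 249 in TOTAL, so its level in IP lay below BO and above INPUT and TOTAL. Gtf2ird2, whose protein carries a Charlie8-derived end, was at 115 in IP and 55.4 in BO, 151 in IP and 147 in INPUT, and 150 in IP and 91.3 in TOTAL. Zbed3 was at 31.7 in IP and 28.9 in BO, 41.5 in IP and 75.02 in INPUT, and 41.4 in IP and 145 in TOTAL. The 4 genes followed no common order of the groups, and as group means they carry no spread.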

How the data were processed

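The 12 libraries (3 each of TOTAL, INPUT, BO and IP) were grouped by their labels. Reads had been mapped by the authors to the mm10 genome (STAR 2.6.0c). For repeats, the paper describes that Telescope reassigned the ambiguous reads, and for coding genes it names no such step. In the tables of genes and loci, multimapping and ambiguous reads had rows of their own. Locus and subfamily levels may therefore rest on different reads. For subfamilies, the deposited signal is a count summed per repeat name and upper quartile normalized by the authors with EBSeq, per library. All values were whole multiples of 1 step per library (100% whole within 0.1 read), which gave back the reads. For genes and loci, the deposited signal is the group mean of counts normalized by the authors with DESeq2 1.24.0, apart for each table, with no value per library and no position, so that depth per library is unknown there. Columns of the authors' own fold changes, statistics and p-values were not used. The rows for unmapped, multimapping, ambiguous and featureless reads, 21.6% to 37.1% of a table's column sum, were left out.

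Subfamilies with a mean of at least 10 (1180) were fitted on log2(normalized count + 1) with limma 3.58.1 (lmFit, eBayes with trend, all 12 libraries, 4 groups) in R 4.3.3 with Benjamini-Hochberg adjustment, and called at a log2 fold change past 1 and an adjusted p under 0.05. Locus ratios added 1 to each mean, over loci averaging at least 10. Alternatives were other pseudocounts (0.1, 10), filters (none, 100; 50 for loci), scalings, a fit of only 2 groups, the replicate number as a block, DESeq2 1.42.0, edgeR 4.0.16 and each library left out, with library totals without BO replicate 3 added after seeing the data. Tested on simulated counts for IP against BO, with 200 of 1180 subfamilies changed by a log2 fold of 2, limma called 99% of these and 0 others. The simulation gave every subfamily the same fixed dispersion. It did not cover changes near the call threshold or subfamilies with a wider spread between libraries. Same-numbered INPUT and TOTAL libraries deviated together (correlations of 0.629, 0.339 and 0.321), but INPUT replicate 3 correlated best with TOTAL replicate 2. The data therefore do not settle a pairing by number. In the other comparisons at least 1 pair was at or under 0.1.

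Named subfamilies were FordPrefect names, the 4 most abundant, and those called (at most 6 over the IP comparisons, 3 in each other); named loci were the 5 with the highest IP mean and the 2 highest and 2 lowest ratios per table. The members and lists were chosen with earlier results of these data known. Overlap of loci with genes and locus sequences were not analysed here, since the tables give no positions.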

Additional observations from a re-analysis of the deposited data

How the results depend on the processing

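Scaling to library totals moved most: it shifted the median of all subfamilies by 0.49 (IP against BO), 0.54 (IP against INPUT), 1.53 (IP against TOTAL) and 0.997 (INPUT against TOTAL) on the log2 scale, called 8, 13, 100 and 66 hAT subfamilies higher there, called 0 lower in IP against INPUT and in BO against INPUT, and gave mean hAT sums of 27851 in TOTAL, 59355 in INPUT, 71320 in BO and 82480 in IP. The BO values rested on BO replicate 3: without it, a setting added after seeing the data, library totals gave a mean BO sum of 86401.8, moved the median of all subfamilies by 0.14 in IP against BO and by 0.37 in BO against INPUT, and called 3 hAT subfamilies higher and 0 lower in IP against BO and 17 and 0 in BO against INPUT, while URR1B, URR1A, RCHARR1 and MER20 stayed below 0 in IP against BO. It raised the share of higher calls among all subfamilies from 57.1% to 88.0% (IP against BO), 52.8% to 87.5% (IP against INPUT), 45.3% to 98.4% (IP against TOTAL) and 0% to 99.2% (INPUT against TOTAL). Under it these log2 fold changes turned above 0: against BO, URR1B (0.15), URR1A (0.30), RCHARR1 (0.36) and MER20 (0.26); against INPUT, URR1B (0.27), URR1A (0.35), MER20 (0.34) and Charlie1b (0.18); against TOTAL, URR1B (1.49), URR1A (1.54), MER106A (0.80) and Charlie1b (1.39). URR1A against TOTAL also turned to 0.0415 under the median ratio and DESeq2 and to 0.0249 under edgeR. The median ratio gave a mean IP sum of 49809 against 49478 in INPUT and 46355 in TOTAL, so that IP overlapped INPUT and lay above every TOTAL library. It moved the median of all subfamilies by 0.12 in IP against BO and raised the share of higher calls to 67.3% there and 64.1% in IP against INPUT. edgeR and DESeq2 each called 5 hAT subfamilies higher in IP against BO. In IP against INPUT, a pseudocount of 10 left 2 higher and 0 lower and a minimum mean of 100 left 2 and 0. In BO against INPUT, the lower count was 0 with a pseudocount of 10, with a minimum of 100 and with the compared groups only, and 2 with no filter. For loci, an average of at least 50 left 5 higher and 11 lower of 24 against BO (126 and 320 of all 613 repeat loci), 7 and 5 of 27 against INPUT (163 and 171 of 648), and 8 and 2 of 24 against TOTAL (191 and 150 of 639), by fewer loci. Centring gave 36 higher and 62 lower against BO (1667 and 1427 of all 5552), and a pseudocount of 10 gave 14 higher and 52 lower against INPUT (867 and 1164 of all 6642) and 15 lower against TOTAL (853 of all 6185).

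With a library left out, hAT calls ranged over 3 to 4 higher and 0 to 2 lower in IP against BO, 2 to 4 and 0 to 2 in IP against INPUT, 1 to 3 and 0 to 1 in IP against TOTAL, 0 and 0 in INPUT against TOTAL, and 0 to 1 and 0 to 2 in BO against INPUT. Mean sums ranged over 45051 to 46955 (TOTAL), 49479 to 50310 (INPUT), 53629 to 55690 (BO) and 47078 to 48462 (IP). Ranges that crossed 0 were, against INPUT, RCHARR1 (-0.0030 to 0.10) and MER33 (-0.0098 to 0.0488), and, against TOTAL, URR1B (-0.11 to 0.0110), URR1A (-0.0372 to 0.0195), MER20 (-0.0336 to 0.0629) and Charlie25 (-0.0582 to 0.45). The cause of these moves was not tested.

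The calls of FordPrefect in the 3 IP comparisons, and of Charlie6 and Charlie10 in IP against BO, were the same under every alternative run (17 in IP against BO, 16 in the other 2), with log2 fold changes of at least 1.76, 1.82 and 2.07 for FordPrefect, 1.80 for Charlie6 and 1.28 for Charlie10. With the replicate block the counts were 3 higher and 0 lower in IP against BO, 4 and 1 against INPUT, 3 and 0 against TOTAL, 0 and 0 in INPUT against TOTAL, and 0 and 1 in BO against INPUT, as without it. Depth limits the rarest names: MER97c and MER106A rested on as few as 3 and 7 reads in a library.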
